A study of Mus musculus with 4 samples.

Results

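The 10 genes of prostaglandin synthesis, breakdown and reception followed here were measured in the colons of dextran sulfate sodium (DSS)-treated mice lacking the adaptor protein STAP-2 and of wild-type mice given the same treatment. They are the cyclooxygenase genes Ptgs1 and Ptgs2, the terminal synthase genes Ptges, Ptgds and Hpgds, the breakdown enzyme gene Hpgd, and the prostaglandin E2 receptor genes Ptger1, Ptger2, Ptger3 and Ptger4. Each was found through the RefSeq accession of its array probe, and where a gene had several probes the one with the highest mean signal was kept. All 10 were found among 20832 named genes, and all 10 were well above background on all 4 arrays.

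The 2 STAP-2-/- arrays and the 2 WT arrays each held RNA pooled from the entire colons of 3 mice aged 14 weeks on the C57BL/6J background. All pools came from mice that had drunk 1.75% DSS, a polymer that damages the lining of the colon and sets off acute colitis, so no untreated colon is among the groups. The sample descriptions put the DSS period at 7 days and the treatment protocol at 3 days, and the period is undecided here. The titles call pools 1 and 2 of a genotype biological replicates and do not say whether equal numbers share a litter, cage or day; p-values measure only the spread between these pools. In whole colon, fewer cells of a type and less RNA per cell cannot be told apart.

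Prostaglandins are lipid signals made from arachidonic acid, which phospholipases release from membranes. The cyclooxygenases convert it to prostaglandin H2, and terminal synthases turn that into prostaglandin E2, D2 and others. In the colon, prostaglandin E2 is known to support epithelial survival and repair after injury, and in mice cyclooxygenase inhibitors are known to worsen DSS colitis.

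Values are log2 of the Agilent processed signal minus the log2 75th percentile of the array, so 0 is the 75th percentile and a step of 1 is a doubling. Levels of different probes cannot be set against each other. The 75th percentile of the signal was 2280 and 2348 on the STAP-2-/- arrays and 2134 and 2215 on the WT arrays, no spot was saturated, and 68.4% to 70.5% of spots were well above background. Stap2, the targeted gene on chromosome 17, was below the background call in both STAP-2-/- pools and bright in both WT pools, where it was at least 721.9-fold higher. For that bound a STAP-2-/- value under the dimmest probe called above background was raised to that probe's level. Over probes above background on all arrays, arrays of equal number were closer to each other (SD of log2 differences 0.334 and 0.361) than arrays of equal genotype (0.603 for STAP-2-/- and 0.405 for WT). Markers of intestinal epithelium were present, while the name of the tissue as colon is that of the labels. All 5 colonocyte markers and the 3 goblet cell markers on the array were above background everywhere, among them Car1 and Krt20 and the goblet cell genes Zg16 and Clca1.

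Start-site upstream sequence was read for 9 of the 10 genes from RefSeq (GRCm38.p6), as the 250 bases before the start site. Shown are Ptgds, with the lowest p of the 10 genes, Ptger2, with the same difference in both pools, and Ptgs2, the inducible cyclooxygenase gene. Capitals mark matches to any of 4 motifs searched on both strands. These were a STAT motif (TTCNNNGAA), the NF-kB motif, a CRE half-site (TGACG) and a TATA box (TATAAA). The windows lie at chr2:25469750-25469999 on the minus strand, chr14:44987861-44988110 on the plus strand and chr1:150099781-150100030 on the plus strand.
Ptgds: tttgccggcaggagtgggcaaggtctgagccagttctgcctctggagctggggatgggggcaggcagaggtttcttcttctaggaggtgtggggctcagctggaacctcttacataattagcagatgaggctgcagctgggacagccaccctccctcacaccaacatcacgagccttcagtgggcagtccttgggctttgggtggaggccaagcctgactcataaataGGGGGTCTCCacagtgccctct
Ptger2: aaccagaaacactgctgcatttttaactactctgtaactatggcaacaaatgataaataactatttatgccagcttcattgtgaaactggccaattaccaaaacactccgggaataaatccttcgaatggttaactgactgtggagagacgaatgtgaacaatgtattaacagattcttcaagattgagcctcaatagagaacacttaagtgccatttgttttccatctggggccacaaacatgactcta
Ptgs2: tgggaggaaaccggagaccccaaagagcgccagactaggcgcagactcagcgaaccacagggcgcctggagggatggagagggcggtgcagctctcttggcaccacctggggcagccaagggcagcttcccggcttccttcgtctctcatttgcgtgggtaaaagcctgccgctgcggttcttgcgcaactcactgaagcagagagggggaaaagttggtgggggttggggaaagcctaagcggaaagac
The Ptgds window held the 1 match among the 9 genes, an NF-kB motif from base -22 to base -13 before the start site. Over 32536 such windows of all genes, 7.28% held an NF-kB match, 7.04% a STAT match, 17.9% a CRE half-site and 12.3% a TATA box. The windows differed in base composition. G and C made up 38.0% of the Ptger2 window, 58.4% of the Ptgds window, 61.6% of the Ptgs2 window and 66.8% of the Ptger4 window, with a median of 52.4% over all windows. These letters were searched as a description, and a missing match says only that the letters are not in the window.

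The first comparison asks which of the 10 genes differ between colons without and with STAP-2. By fitted value 8 of the 10 were lower in STAP-2-/- colons and 2 higher, with a median log2 difference of -0.29, against a median of -0.0068 and 51.7% lower over 15561 genes tested. None of the 10 passed limma at the adjusted threshold of 0.05 (adjusted p = 1 for each), where 0% of all genes tested passed. Ptgds alone had a limma unadjusted p under 0.05 (0.0383), which 2.09% of all genes had. That side of 0.05 did not hold in every model: with an intensity trend and a robust fit the unadjusted p of Ptgds was 0.0790. Of the 10, 4 genes, Ptges, Ptgds, Ptger2 and Ptger3, were lower with no overlap between the genotypes, as were 13.3% of all genes, and Hpgd was higher with no overlap, as were 11.5%. In those 4 lower genes the difference was also larger than the gap between the arrays of either genotype, which held for 16.5% of all genes tested. The plot of single arrays shows these values.

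**Figure D1:**
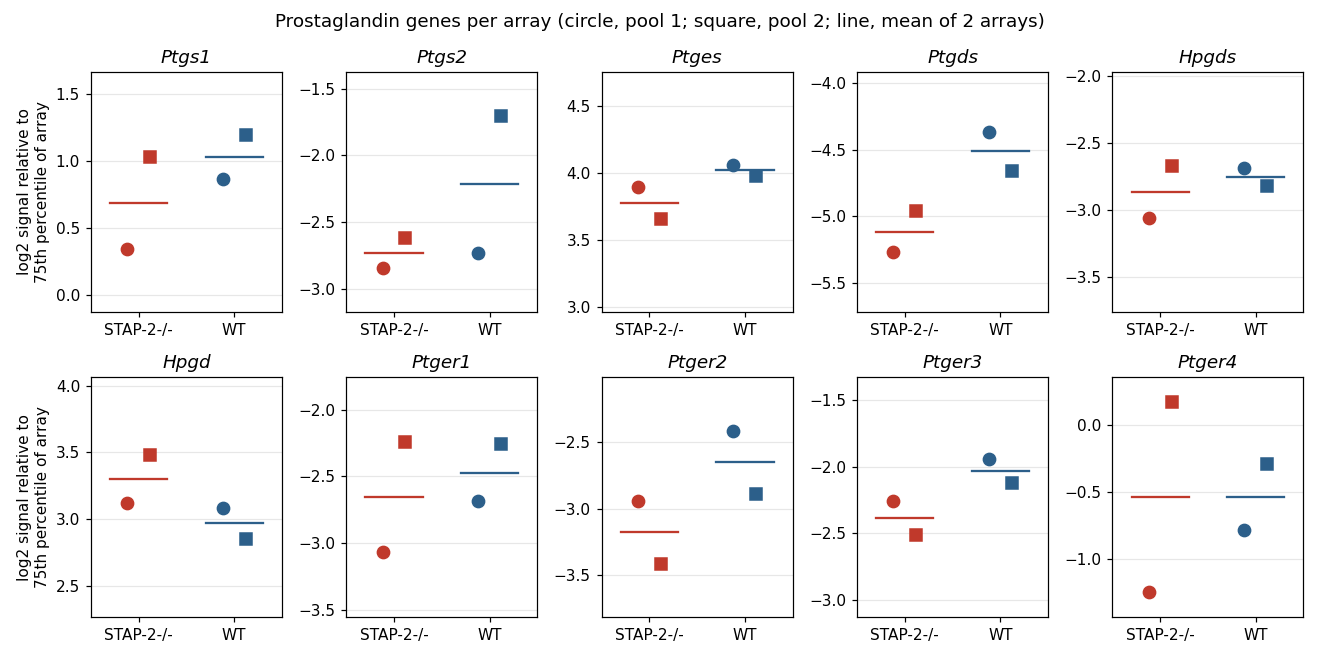
Log2 signal of each gene relative to the 75th percentile of its array, with STAP-2-/- left of WT in every panel; circles are pools numbered 1, squares pools numbered 2 and lines the mean of 2 arrays. Every panel spans the same range of log2 units. Ptges, Ptgds, Ptger2 and Ptger3 lie lower in both STAP-2-/- pools than in both WT pools, and Hpgd lies higher.

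Of the cyclooxygenases, Ptgs1 on chromosome 2 encodes the form that most tissues make constantly. It measured 0.34 and 1.03 in STAP-2-/- pools 1 and 2, against 0.86 and 1.19 in WT pools 1 and 2. The ranges overlapped, since STAP-2-/- pool 1 was the low array and the other 3 lay close together. The log2 difference was -0.34 (95% interval -1.19 to 0.50), and without STAP-2-/- pool 1 it was 0.0041.

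Ptgs2 on chromosome 1 encodes the form that cytokines and injury induce, and it had 1 outstanding array. It measured -2.84 and -2.62 in STAP-2-/- pools, against -2.73 and -1.70 in WT pools. WT pool 2 was 2.03-fold above WT pool 1, while WT pool 1 lay between the STAP-2-/- pools. The array carries this probe at 10 spots, whose SD within an array was 0.039 to 0.055; that is the error of spotting and reading alone and says nothing of the spread between pools. The log2 difference between genotypes was -0.51 (95% interval -1.62 to 0.60), and without WT pool 2 it was -0.0015.

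The 3 genes tested whose 4 values were closest to those of Ptgs2, each gene centred on its own mean, were Madcam1, Col1a1 and Mab21l3. Their root mean square differences from Ptgs2 over 4 arrays were 0.044, 0.064 and 0.066 log2 units. Madcam1, the vascular addressin that binds homing lymphocytes, measured -1.61 and -1.42 in STAP-2-/- pools, against -1.53 and -0.40 in WT pools. Col1a1, a chain of fibrillar collagen, measured 2.05 and 2.21 in STAP-2-/- pools, against 1.99 and 3.09 in WT pools. These genes were picked for their likeness to Ptgs2, so the arrays they share with it are no separate finding.

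Genes that act upstream of Ptgs2 were read from a list of 9, of which 8 were tested. None passed the limma test, 5 were lower and 3 higher, and the median log2 difference was -0.073. Il1b, the interleukin 1 beta gene, measured -2.33 and -1.09 in STAP-2-/- pools, against -1.96 and 0.028 in WT pools, so WT pool 2 was the highest array here too. Tnf measured -4.21 and -2.19 in STAP-2-/- pools, against -1.65 and -2.06 in WT pools, and its highest array was WT pool 1. It was the 1 gene of the 8 with no overlap, lower in STAP-2-/- as were 13.3% of all genes. Its log2 difference was -1.34, and -0.33 without STAP-2-/- pool 1. The neutrophil gene S100a9, like Il1b, Tnf and S100a8 named after its values were seen, measured -3.71 and -1.30 in STAP-2-/- pools, against -4.08 and 1.02 in WT pools. S100a8, its partner in calprotectin, measured -4.95 and -3.29 in STAP-2-/- pools, against -4.80 and -1.11 in WT pools, so it too was highest in WT pool 2, 12.8-fold above WT pool 1. Both genes were higher in pool 2 than in pool 1 of each genotype, with wide overlap between the genotypes. The third neutrophil marker tested, Csf3r, did not share this, at 5.83 and 5.44 in STAP-2-/- pools, against 5.86 and 5.64 in WT pools. Summed over the 3 markers the log2 level was 5.46 to 5.83 in STAP-2-/- pools and 5.71 to 5.87 in WT pools, a sum that follows Csf3r almost alone. Cxcr2 was well above background on neither STAP-2-/- array and on 1 of 2 WT arrays. The part of these cells in the Ptgs2 values was not tested.

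Among the terminal synthases, Ptges on chromosome 2 encodes the membrane-bound prostaglandin E synthase that works with Ptgs2. It measured 3.90 and 3.66 in STAP-2-/- pools, against 4.06 and 3.98 in WT pools. Both STAP-2-/- pools were lower, by a log2 difference of -0.24 (95% interval -0.67 to 0.19), and by -0.36 to -0.12 (without STAP-2-/- pool 2) with each array left out in turn. The second Ptges probe, on the same accession and far dimmer, did not show this: it measured -3.34 and -4.06 in STAP-2-/- pools, against -3.72 and -4.01 in WT pools, a difference of 0.16 with overlap. With the mean of both probes the difference was -0.039.

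Ptgds on chromosome 2 encodes the lipocalin-type prostaglandin D synthase. It measured -5.27 and -4.96 in STAP-2-/- pools, against -4.37 and -4.66 in WT pools. Both STAP-2-/- pools were below both WT pools, and the nearest pair was STAP-2-/- pool 2 and WT pool 2. STAP-2-/- was 1.52-fold lower, with a log2 difference of -0.60 (95% interval -1.15 to -0.053, limma adjusted p = 1). The interval is that of the single gene, not adjusted for the 15561 tested. Leaving out each array in turn gave -0.75 to -0.45, and the probe was dim, at a processed signal of 59.2 to 103 units. With normexp background correction of the median spot intensity (offset 50) and quantile normalization, 3 changes made together, the difference was -0.32.

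The 3 genes closest to Ptgds by the same measure were Samd4, Adgrl2 and Syndig1l, at 0.035, 0.044 and 0.065 log2 units over 4 arrays. Samd4 encodes an RNA-binding protein and Adgrl2 an adhesion receptor of the latrophilin family. Samd4 measured -3.01 and -2.73 in STAP-2-/- pools, against -2.10 and -2.33 in WT pools. All 3 were picked for their likeness to Ptgds on these arrays, so the genotype difference they share with it is no separate finding.

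Hpgds on chromosome 6 encodes the hematopoietic prostaglandin D synthase of mast cells, tuft cells and some lymphocytes. It measured -3.06 and -2.67 in STAP-2-/- pools, against -2.69 and -2.82 in WT pools. The groups overlapped, and the log2 difference was -0.11 (95% interval -0.65 to 0.42). Of the genes for the 2 routes to prostaglandin D2, Ptgds had no overlap between the genotypes and Hpgds did, a contrast between the genes that was not tested.

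Hpgd on chromosome 8 encodes the dehydrogenase that inactivates prostaglandin E2, an enzyme of the mature colonic epithelium. It measured 3.12 and 3.48 in STAP-2-/- pools, against 3.09 and 2.85 in WT pools. It was the 1 gene of the 10 that was higher in both STAP-2-/- pools, though STAP-2-/- pool 1 and WT pool 1 were nearly level. The log2 difference was 0.33 (95% interval -0.23 to 0.89), a 1.26-fold higher mean. The second Hpgd probe had a like difference of 0.34 but overlapped, at 2.08 and 2.73 in STAP-2-/- pools, against 2.11 and 2.01 in WT pools. On both probes STAP-2-/- pool 2 was the high array, and without it the difference of the kept probe was 0.15.

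Of the receptors, Ptger2 and Ptger3 were lower in both STAP-2-/- pools, while for Ptger1 and Ptger4 the genotypes overlapped. Ptger2 on chromosome 14 encodes EP2, which raises cyclic AMP. It measured -2.94 and -3.41 in STAP-2-/- pools, against -2.42 and -2.89 in WT pools. The gap between the genotypes was almost the same at both numbers, -0.52 for pools 1 and -0.52 for pools 2, and pool 2 was lower than pool 1 by 0.47 in both genotypes. The log2 difference was -0.52 (95% interval -1.28 to 0.23), with STAP-2-/- 1.44-fold lower. It was -0.29 without STAP-2-/- pool 2 or without WT pool 1, and -0.76 without either of the other arrays.

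Ptger3 on chromosome 3 encodes EP3, which lowers cyclic AMP. It measured -2.26 and -2.51 in STAP-2-/- pools, against -1.95 and -2.12 in WT pools. Both STAP-2-/- pools were lower, by a log2 difference of -0.35 (95% interval -0.82 to 0.12), and by -0.48 to -0.22 (without STAP-2-/- pool 2) with each array left out in turn. The second Ptger3 probe measured -3.48 and -3.66 in STAP-2-/- pools, against -3.39 and -3.68 in WT pools, a difference of -0.035 with overlap, so the 2 probes of this gene disagree. With their mean the difference was -0.19.

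Ptger4 on chromosome 15 encodes EP4, which raises cyclic AMP and is a main prostaglandin E2 receptor of intestinal immune and epithelial cells. It measured -1.25 and 0.17 in STAP-2-/- pools, against -0.79 and -0.29 in WT pools. The STAP-2-/- pools were the lowest and the highest of the 4 arrays, so the genotype means were equal to within 0.0011 while the interval ran from -1.55 to 1.55. The equal means therefore set no narrow limit on a genotype difference. Ptger1 on chromosome 8, the gene of the calcium-linked receptor EP1, measured -3.07 and -2.25 in STAP-2-/- pools, against -2.69 and -2.26 in WT pools. Its groups overlapped too, with a log2 difference of -0.18 (95% interval -1.18 to 0.81).

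**Figure D2:**
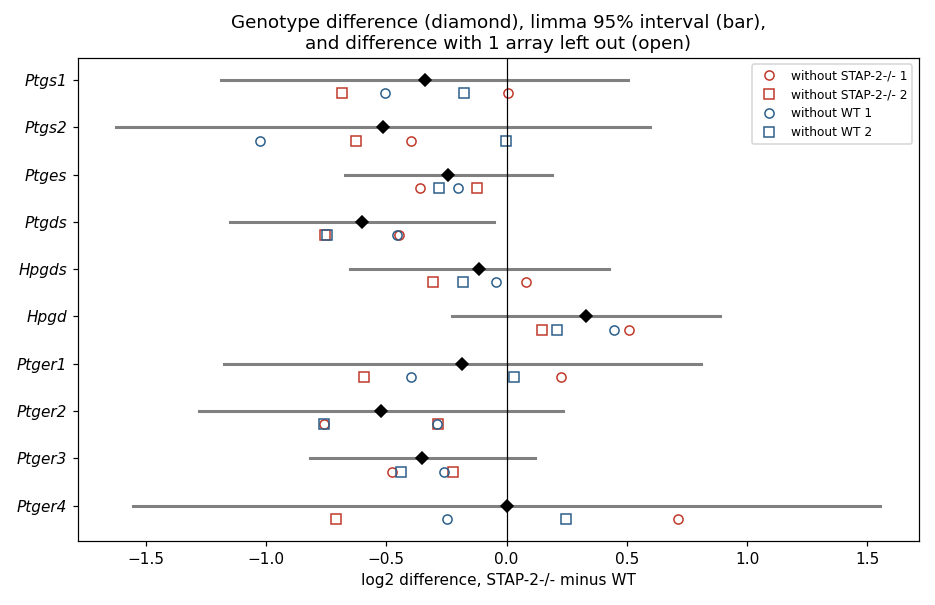
Log2 difference of each gene, STAP-2-/- minus WT, with the limma 95% interval of the single gene as a bar and the difference with each array left out as open symbols. Ptgds has the 1 interval that ends below 0, at -0.053, and for Ptger4 leaving out STAP-2-/- pool 1 or pool 2 moves the difference to 0.71 or -0.71.

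The second comparison sets pool 1 against pool 2 within each genotype and is given as values with no test. Of the 10 genes, 4, namely Ptgs1, Ptgs2, Ptger1 and Ptger4, were lower in both pools numbered 1 than in both pools numbered 2, as were 26.4% of all genes tested, and 0 of the 10 were higher in both, as were 36.0%. In either direction the pools of equal number did not overlap for 62.4% of all genes, against 24.8% for genotype. Counting each genotype alone, 7 of the 10 differed the same way between pools 1 and 2 in STAP-2-/- and in WT, as did 77.2% of all genes, a share close to that of the members. Ptgds, Hpgds and Hpgd were the 3 that differed in opposite ways.

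Ptger4 had the widest gap of the 10 between the STAP-2-/- pools, with pool 2 at 2.68-fold the level of pool 1, and WT pool 2 was 1.41-fold above WT pool 1. Of all genes tested, 8.19% were at least 2-fold apart between the STAP-2-/- pools. For Ptger1 pool 2 was 1.77-fold above pool 1 in STAP-2-/- and 1.34-fold in WT, and for Ptgs1 1.61-fold and 1.26-fold. Ptgs2 went the same way with the sizes turned round, 1.17-fold in STAP-2-/- and 2.03-fold in WT, where 3.42% of all genes were at least 2-fold apart. Ptger2 and Ptger3 went the other way, with pool 1 above pool 2 by 1.39-fold and 1.20-fold in STAP-2-/- and by 1.39-fold and 1.13-fold in WT. Ptges went this way too, with pool 1 above pool 2 by 1.18-fold in STAP-2-/- and 1.05-fold in WT. So within each genotype the EP1 and EP4 genes were higher in the pool numbered 2, and the EP2 and EP3 genes in the pool numbered 1. Across both genotypes the pools numbered 1 and 2 did not overlap for EP1 and EP4, but did for EP2 and EP3.

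**Figure D3:**
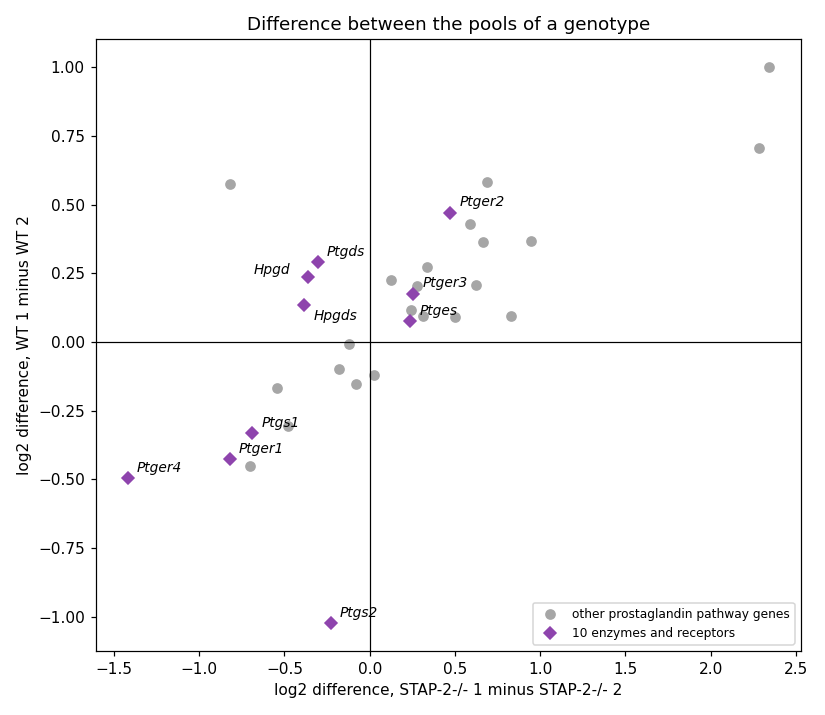
Log2 difference between the pools of STAP-2-/- (1 minus 2, horizontal) and between the pools of WT (1 minus 2, vertical), with the 10 genes as diamonds and 22 other prostaglandin pathway genes as grey circles. Ptger4 lies farthest left at -1.42, Ptgs2 lowest at -1.02, and Ptger2, Ptger3 and Ptges lie on the opposite side of both axes.

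Read by number, 6 of the 10 genes were lower in STAP-2-/- in both equal-number pairs, as were 29.1% of all genes tested, Hpgd was higher in both, as were 26.9%, and Hpgds, Ptger1 and Ptger4 changed sign. The labels do not say that equal numbers belong together, so these pairs are a description. Ptgs2 differed by -0.12 between pools 1 and by -0.91 between pools 2. Ptgds differed by -0.90 between pools 1 and by -0.30 between pools 2. Ptger4 differed by -0.46 between pools 1 and by 0.46 between pools 2.

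The rest of the prostaglandin pathway was read from a list of 26 genes, of which 25 were on the array and 22 were tested. None passed the limma test, 13 were lower and 9 higher in STAP-2-/-, and the median log2 difference was -0.080. With no overlap, 2 were higher and 1 was lower, each by a small difference and each named after its values were seen. Over all genes tested 11.5% were higher and 13.3% lower with no overlap. Ptges2, the gene of another prostaglandin E synthase, was higher, at 1.39 and 1.11 in STAP-2-/- pools, against 1.09 and 0.89 in WT pools (difference 0.26). That is the opposite direction to Ptges. Pla2g6, a calcium-independent phospholipase A2 gene, was higher by 0.25, at -2.17 and -2.05 in STAP-2-/- pools, against -2.37 and -2.36 in WT pools. The reductase gene Ptgr1 was lower by fitted difference (-0.22), at 0.37 and 0.45 in STAP-2-/- pools, against 0.55 and 0.71 in WT pools. The prostacyclin receptor gene Ptgir, named after its values were seen, measured -3.69 and -2.98 in STAP-2-/- pools, against -3.04 and -2.58 in WT pools. Its groups overlapped, with a difference of -0.52 (limma adjusted p = 1) that was -0.87 to -0.17 (without STAP-2-/- pool 1) with each array left out in turn. The prostaglandin D2 receptor genes Ptgdr and Ptgdr2 were not well above background on any array, so the receptors for the product of Ptgds and Hpgds could not be measured.

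Between the pools the other pathway genes leaned towards pool 1, 13 of the 22 being higher in both pools numbered 1 and 4 lower, against 36.0% and 26.4% of all genes. The widest gap was in Pla2g5, a secreted phospholipase A2, named after its values were seen. It measured 2.09 and -0.25 in STAP-2-/- pools, against 1.88 and 0.87 in WT pools. Cytosolic phospholipase A2, the main supplier of arachidonic acid to the cyclooxygenases, is encoded by Pla2g4a, which spanned 1.63 to 1.66 in STAP-2-/- pools and 1.65 to 1.77 in WT pools.

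Of a list of 10 lipoxygenase and leukotriene genes, from the neighbouring branches of arachidonic acid metabolism, 9 were tested and none passed the limma test. Of these 6 were lower, 4 of them with no overlap, and 3 were higher, 2 of them with no overlap. Over all genes tested 13.3% were lower and 11.5% higher with no overlap. The 2 higher genes with no overlap, Alox15 and Cysltr2, passed the filter only through the STAP-2-/- arrays, where they were high. Their direction was therefore favoured by the filter and is no separate finding. Alox5, the 5-lipoxygenase gene, measured -1.73 and -1.32 in STAP-2-/- pools, against -0.95 and -1.04 in WT pools. Alox15 measured -5.96 and -5.48 in STAP-2-/- pools, against -6.58 and -6.03 in WT pools, where it was well above background on 1 of 2 arrays. Cysltr2, a cysteinyl leukotriene receptor gene, was below the background call in both WT pools and dim throughout. Its processed signal was 31.5 and 38.5 in STAP-2-/- pools, against 25.4 and 22.7 in WT pools. With WT values raised as for Stap2, STAP-2-/- was 1.27-fold higher, a value that carries no error. With normexp and quantile normalization the log2 difference was only 0.10.

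Markers of cell types that can make or sense prostaglandins were read beside these genes. None of the markers tested passed the limma test, and over all genes tested 13.3% were lower and 11.5% higher with no overlap. All 5 tuft cell markers tested were lower in STAP-2-/-, 4 with no overlap, and their summed log2 level was -0.79 to -0.25 in STAP-2-/- pools and 0.074 to 0.091 in WT pools, with Pou2f3 not well above background on any array. All 6 enteric neuron and glia markers were lower, 5 with no overlap, with summed levels of 0.801 to 1.004 in STAP-2-/- pools and 1.21 to 1.32 in WT pools. All 5 fibroblast markers were lower, 3 with no overlap, with summed levels of 5.62 to 5.78 in STAP-2-/- pools and 5.91 to 6.10 in WT pools. Smooth muscle markers were lower in 4 of 4, 2 with no overlap, at 7.12 to 7.21 in STAP-2-/- pools and 7.44 to 7.47 in WT pools. The part of these cells in the lower Ptgds, Ptger2, Ptger3 and Ptges values was not tested.

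Mast cell markers, 6 of 6 above background, did not share a pattern. Their summed level was 1.23 and 2.01 in STAP-2-/- pools, against 1.55 and 1.70 in WT pools, and it follows Kit, which the pacemaker cells of the gut wall also carry. Kit measured 0.94 and 1.90 in STAP-2-/- pools, against 1.28 and 1.54 in WT pools. The mast cell tryptase gene Tpsb2 ran the other way between the pools, at -2.04 and -3.01 in STAP-2-/- pools, against -1.93 and -3.25 in WT pools. The mast cell protease genes Mcpt1 and Mcpt4 were lower in STAP-2-/- with no overlap, and Mcpt2 and Cpa3 overlapped. The 4 adipocyte markers were each lower in STAP-2-/- by fitted value, 1 with no overlap, and their sum was 4.53 and 4.15 in STAP-2-/- pools, against 5.25 and 4.56 in WT pools. The lowest array was STAP-2-/- pool 2 and the highest WT pool 1, and Ptges, Ptger2 and Ptger3 had the same lowest and highest arrays, as the plot of centred values shows. That order is not particular to adipocytes, since the goblet cell, neutrophil and macrophage sums had the same lowest and highest arrays. The neutrophil sum follows Csf3r. The macrophage sum follows Itgam, at 4.52 and 4.25 in STAP-2-/- pools, against 4.61 and 4.35 in WT pools. The macrophage markers Csf1r, Lyz2 and Adgre1 did not have those lowest and highest arrays. The 4 macrophage markers on the array had summed levels of 4.70 to 4.91 in STAP-2-/- pools and 4.78 to 4.96 in WT pools. All 3 T cell markers on the array were higher in STAP-2-/-, 2 with no overlap, as were 11.5% of all genes tested. Their summed levels were 0.96 to 1.21 in STAP-2-/- pools and 0.69 to 0.74 in WT pools. Of 3 endothelium markers 2 were lower, 1 of them with no overlap, and 1 was higher. The part of these cells in the values was not tested.

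**Figure D4:**
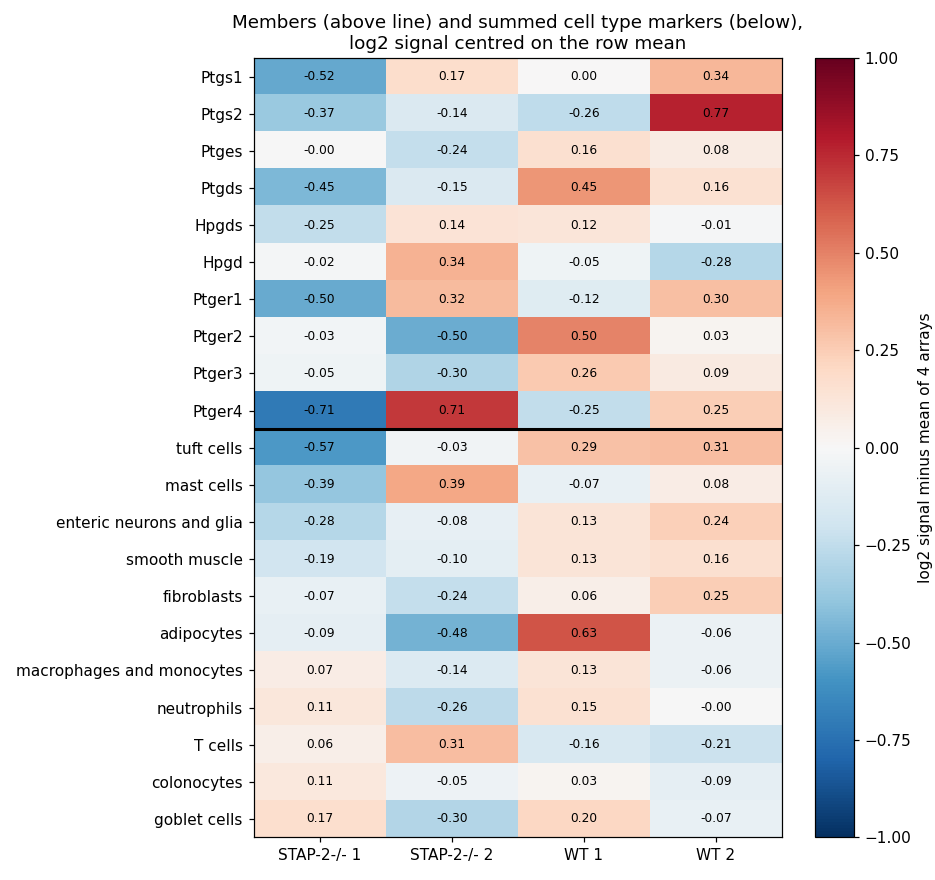
Log2 signal on each array minus the mean of the 4 arrays, for the 10 genes above the line and for the summed markers of the cell types below it, with STAP-2-/- pools left of WT pools and red for higher. Ptgs2 stands out on WT pool 2 (0.77), Ptger4 on STAP-2-/- pools 1 and 2 (-0.71 and 0.71) and the adipocyte sum on WT pool 1 (0.63).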

How the data were processed

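RNA of the colon was measured on 4 one-colour Agilent mouse arrays, 1 per pool of 3 mice, on 1 slide and in 1 scan. Per the file headers, each deposited scanner file gives a processed signal intensity per spot, from which the software had removed background and spatial trend without scaling between arrays, beside median spot and background intensities and flags; the build of the array annotation is mm9. Per the submitters' processing notes they were made with Agilent Feature Extraction 10.7.1.1. The authors' deposited value table holds a linear ratio, the processed signal over 1 constant per array, and served as an alternative only. The ratio held within 1% for 99.96% to 99.98% of probes above a signal of 500. How the constant was chosen is not stated in the sources used here. The 75th percentile of the table was 1 on every array, so its scaling is nearly that of the main values.

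Outlier-flagged spots were left out, spots of a probe averaged and each array set to its 75th percentile. Of 39429 probes, 27427 were named through their accession in a RefSeq table (GRCm38.p6), used for names, chromosomes and upstream sequence. A gene was tested if both arrays of 1 genotype, or of both, had its probe well above background (15561 genes). Genotypes were compared with limma 3.58.1 in R 4.3.3 with Benjamini-Hochberg adjustment over all genes; each p comes from that model unless an alternative is named beside it. The fit was tested on simulated data, where it recovered 0.9% of 2-fold, 48.5% of 4-fold and 77.8% of 16-fold changes, with 4.65 false calls per draw. These rates hold for the simulated data and were not measured on these arrays. In the comparison as reported even Stap2, at a log2 difference of -10.1, was not called (limma adjusted p = 0.314). A gene that did not pass is therefore not shown to be unchanged. With 2 arrays per genotype, their number limits the precision. Figures used matplotlib 3.10.9.

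The 10 genes and the lists were chosen with earlier results of these data known. Named are the 10 genes, Stap2, and pathway, lipoxygenase and leukotriene genes with no overlap and a log2 difference of at least 0.4. Also named are the 2 brightest markers of a cell list, and the 3 genes closest to Ptgs2 and to Ptgds. Other genes were named after their values were seen. Alternatives were other scalings, the value table, normexp together with quantile normalization, filters, the mean of probes, flagged spots kept, an intensity trend with robust fit, the replicate number as a block and each array left out.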

Additional observations from a re-analysis of the deposited data

How the results depend on the processing

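No gene of the 10 passed an adjusted p of 0.05 under any of the 14 alternatives (lowest 0.699), and 131 of their alternative values kept the sign while 9 did not. Ptgds, Ptges, Ptger2, Ptger3, Ptgs2 and Hpgd kept it in every alternative. No alternative took the second probe of a gene alone. On that of Ptges the difference was 0.16, the opposite sign, and on those of Ptger3 (-0.035) and Hpgd (0.34) the same sign. Ptger4, at 0.0011, was -0.0010 with quantile normalization, -0.0010 with median scaling and -0.0063 with the authors' value table. With each array left out in turn, the log2 differences were -0.71 to 0.71 for Ptger4, -0.59 to 0.23 for Ptger1, -0.30 to 0.079 for Hpgds, -0.69 to 0.0041 for Ptgs1, -1.02 to -0.0015 for Ptgs2, -1.74 to 0.25 for Il1b, -2.35 to -0.33 for Tnf, -3.52 to 1.58 for S100a9, -3.004 to 0.68 for S100a8, 0.12 to 0.39 for Ptges2, 0.31 to 0.86 for Alox15 and -1.63 to 0.71 for Pla2g5; the cause was not tested. Members lower with no overlap, 4 with all arrays, were 2 when probes of a gene were averaged and 4 (without STAP-2-/- pool 1) to 9 (without STAP-2-/- pool 2) with 1 array left out. Those higher, 1 with all arrays, were 0 with the mean of probes and 1 to 4 (without STAP-2-/- pool 1) with 1 array left out. Leaving out an array loosens the no-overlap rule. Normexp on the median spot intensity with quantile normalization, changed together, called 1 gene, Stap2 (-7.53, adjusted p = 0.00436), where no other alternative called any; in the limma comparison as reported 325 genes had an unadjusted limma p under 0.05. Arrays of equal number deviated together from their genotype means (r = 0.596 across genes, which are not independent). The labels do not pair them; with the replicate number as a block 0 genes were called and 1040 had an unadjusted p under 0.05, which is 6.69% of those tested. Among the members these were Ptger2 and Ptger3, while Ptgds, at 0.0516, was no longer among them. Their adjusted limma p with the replicate block was 0.699 in each case.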
